A study of Mus musculus with 6 samples.

Results

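The genes that fold, process and export proteins in the endoplasmic reticulum (ER), together with the sensors and transcription factors of the unfolded protein response (UPR), were compared between *Hoxa9*/*IRX3* and *Hoxa9*/MTV murine leukemias. They were 42 genes chosen by what their products do, of 41128 genes in the expression table: 9 ER chaperones and co-chaperones, 3 calcium-binding chaperones, 4 protein disulfide isomerases, 7 translocon genes, 5 signal peptidase genes, 4 retrieval and cargo receptors, 6 sensors and transcription factors, and 4 genes of ER-associated degradation. All 42 were matched by symbol, and 41 passed the filter of 0.5 RPKM (read density over the gene, per kilobase and relative to library size) in at least 1 mouse. Of the 41 genes, 31 had a higher mean in the *Hoxa9*/*IRX3* leukemias on the log2(RPKM + 0.5) scale, beside 42.5% of all tested genes. None of the 31 passed the adjusted threshold. The largest difference was that of *Xbp1*, the only gene that passed the threshold was *Sec11c*, which was lower, and the sensors *Ern1*, *Eif2ak3* and *Atf6* had no higher mean.

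RNA was sequenced from 6 mice, with 3 mice per cohort and 1 library per mouse. In both cohorts, KIT+ BM cells of female CD45.1+ donors aged 6 to 12 weeks received retroviral *Hoxa9*, a homeobox gene that transforms murine progenitors. The labels give the strain of all samples as C57BL/6, and by the methods the CD45.1+ mice were of the congenic line B6.SJL-PtprcaPepcb/BoyJ. *Hoxa9*/*IRX3* cells also received a human *IRX3* cDNA, and *Hoxa9*/MTV cells received the empty vector MTV. After drug selection the cells were transplanted with CD45.2+ helper BM into lethally irradiated CD45.2+ female mice, and when these became sick with acute myeloid leukemia (AML), viable donor KIT+Gr1+ cells of the BM were thawed and sorted. Retroviral *Hoxa9* is thus shared by both cohorts, the introduced genes are driven by the vector and not by their own loci, and each library is the leukemia of 1 host, with any other donor cells that fall in the sort gate. The paper reports a later onset of AML in *Hoxa9*/*IRX3* recipients, so that *IRX3* and time to disease cannot be told apart. The question was which genes of ER folding, secretion and the UPR differ when *IRX3* is added to *Hoxa9*. Computed from the steps between low RPKM values, the libraries held 7979246 to 9803621 reads. The paper gives a somewhat higher range of reads after filtering. Mice 1.1, 1.2 and 1.4 are *Hoxa9*/MTV and mice 3.2, 3.3 and 3.5 are *Hoxa9*/*IRX3*. These numbers are names of animals, and no mouse of 1 cohort is paired with one of the other. Mouse *Irx3* was not read in *Hoxa9*/MTV (0 RPKM in each mouse), and its level in mice 3.2, 3.3 and 3.5 was 15.1, 0.421 and 0.148 RPKM. Since the introduced cDNA is human, these values are a limited check of the labels.

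Secreted and membrane proteins enter the ER through the SEC61 translocon, lose their signal peptide to the signal peptidase complex, and are folded by HSPA5 (BiP), HSP90B1, the lectin chaperones calreticulin and calnexin and the protein disulfide isomerases. Chaperones that escape are returned by KDEL receptors, and proteins that fail to fold are sent to the cytosol for degradation. When unfolded proteins accumulate, the sensors IRE1 (*Ern1*), PERK (*Eif2ak3*) and ATF6 start the UPR. IRE1 removes a short intron from *Xbp1* mRNA, so that the spliced mRNA encodes an active transcription factor. PERK favors the translation of ATF4, which raises *Ddit3*, and ATF6 is cut and moves to the nucleus. In the myeloid lineage, cells that make granule proteins carry a large secretory load.

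The *Xbp1* intron is shown because the RPKM of *Xbp1* does not separate spliced from unspliced mRNA, so that the values below say nothing about splicing. It lies at chr11:5524279-5524304 (GRCm38, plus strand), in exon 4 of 5 of the longest matching transcript in GENCODE M21, and the whole stretch printed is coding sequence. The capitals mark the 26 bases that IRE1 removes, and the lower case marks 18 bases on each side.
Xbp1: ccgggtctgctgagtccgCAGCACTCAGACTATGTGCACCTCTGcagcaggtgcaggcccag

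Many ER chaperone promoters carry the ER stress element, CCAAT and CCACG separated by 9 bases, to which ATF6 and XBP1 are known to bind next to NF-Y. RefSeq promoter sequences (GRCm38.p6, 250 bases before to 50 bases after the start) were found for 33 of the 42 genes. They were not matched for *Spcs3*, *Kdelr2*, *Manf*, *Lman1*, *Sec11c*, *Hyou1*, *Sec61a1*, *Ssr2* and *Atf6*. On either strand, the element was in 8 of the 33 (24.2%) and in 37 of all 27025 genes with a promoter (0.137%), or 39 of 32851 windows (0.119%). Of these 8, the following windows are shown, each written along the strand on which the element reads forward, with the 2 parts of the element in capitals and 10 further bases on each side.
Hspa5: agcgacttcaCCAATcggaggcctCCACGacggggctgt
Dnajc3: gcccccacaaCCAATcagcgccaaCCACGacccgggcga
Hsp90b1, distal: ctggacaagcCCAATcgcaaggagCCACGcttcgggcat
Hsp90b1, proximal: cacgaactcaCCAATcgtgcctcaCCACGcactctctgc
Calr: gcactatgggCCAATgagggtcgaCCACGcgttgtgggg
Canx: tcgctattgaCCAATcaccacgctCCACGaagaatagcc
Syvn1: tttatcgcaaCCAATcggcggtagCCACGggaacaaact

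The element of *Hspa5* spans chr2:34772025-34772043 and that of *Dnajc3* chr14:118937827-118937845. Counted from the RefSeq start, their first bases are at -65 and -105. *Hsp90b1* has 2 copies, at chr10:86705638-86705656 and chr10:86705533-86705551, *Calr* has 1 at chr8:84847075-84847093, *Canx* 1 at chr11:50325800-50325818, and *Syvn1* 1 at chr19:6046532-6046550. The copies of *Calr* and the proximal copy of *Hsp90b1* read on the strand opposite to the gene. *Creld2* and *Pdia6* have the element as well. A second form, ATTGG and CCACG separated by 1 base, was in *Dnajb11* and *Herpud1* and in 0.0365% of all windows. The UPR element TGACGTGG was in *Kdelr3* and in 0.676% of all windows. The C/EBP-ATF element TGATGCAA, which ATF4 is known to use, was in *Herpud1* and in 0.895% of all windows. No other promoter of the 33, including that of *Xbp1*, held these letters. These matches describe the sequence and say nothing on binding.

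Differences are given as log2 fold changes of *Hoxa9*/*IRX3* over *Hoxa9*/MTV on the log2(RPKM + 0.5) scale, with limma's standard error and its p-value adjusted by Benjamini-Hochberg over 9522 protein-coding genes. At an adjusted p under 0.05, 0 of the 41 genes were higher and 1 was lower, beside 1.84% and 3.52% of all tested genes. With quantile normalization, the split over all tested genes was 234 higher and 274 lower in place of 175 and 335. At an unadjusted limma p under 0.05, 13 of the 41 were higher and 1 was lower, where 8.34% and 16.0% of all tested genes were. The cohorts did not overlap in 19 genes, with *Hoxa9*/*IRX3* above in 17 (41.5%) and below in 2 (4.88%). Over all tested genes these shares were 12.2% and 21.6%. The median difference of the 41 genes was 0.18, with 31 above 0 and 10 below. That of all tested genes was -0.06, with 42.5% of them above 0. The differences of the genes ran from -0.90 to 1.21. No exact test of 3 mice against 3 can give a p below 0.1, so that single genes are judged by limma. Its p-values set each difference against the spread between the mice of this experiment. For each gene limma draws that spread toward a trend over all tested genes.

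**Figure D1:**
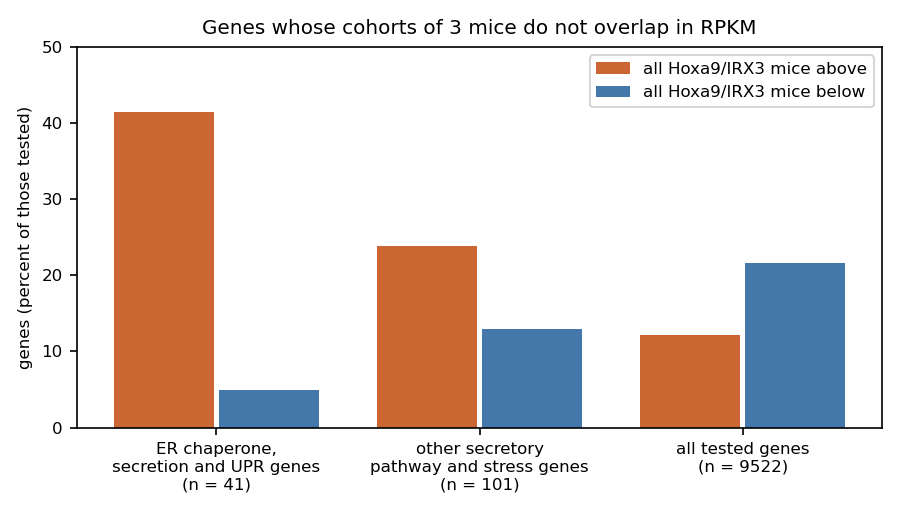
Bars show the percent of tested genes whose 3 *Hoxa9*/*IRX3* mice all lay above (orange) or all below (blue) the 3 *Hoxa9*/MTV mice in RPKM, for the 41 genes described here, 101 other secretory pathway and stress genes, and all 9522 tested genes. The orange bars stand at 41.5%, 23.8% and 12.2% and the blue bars at 4.88%, 12.9% and 21.6%.

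The median over the 41 genes was above 0 in all 3 *Hoxa9*/*IRX3* mice, but not in every role. Each mouse was set against the *Hoxa9*/MTV mean on the log2(RPKM + 0.5) scale, and the median over the 41 genes was 0.014, -0.034 and -0.006 in mice 1.1, 1.2 and 1.4 and 0.268, 0.214 and 0.203 in mice 3.2, 3.3 and 3.5. The same medians over all tested genes were -0.026, -0.032 and -0.132 in mice 3.2, 3.3 and 3.5, the opposite sign. By role, the median was -0.130 in mouse 3.5 for the protein disulfide isomerases. For the sensors and transcription factors it was -0.066 and -0.243 in mice 3.3 and 3.5. Mouse 3.5 was the lowest of its cohort for 20 of the 41 genes. Among the 17 genes whose cohorts did not overlap upward, the highest value was in mouse 3.2 for 7, in mouse 3.3 for 5 and in mouse 3.5 for 5. In this RNA of sorted cells, a different mix of cells and a different amount of RNA per cell cannot be told apart.

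**Figure D2:**
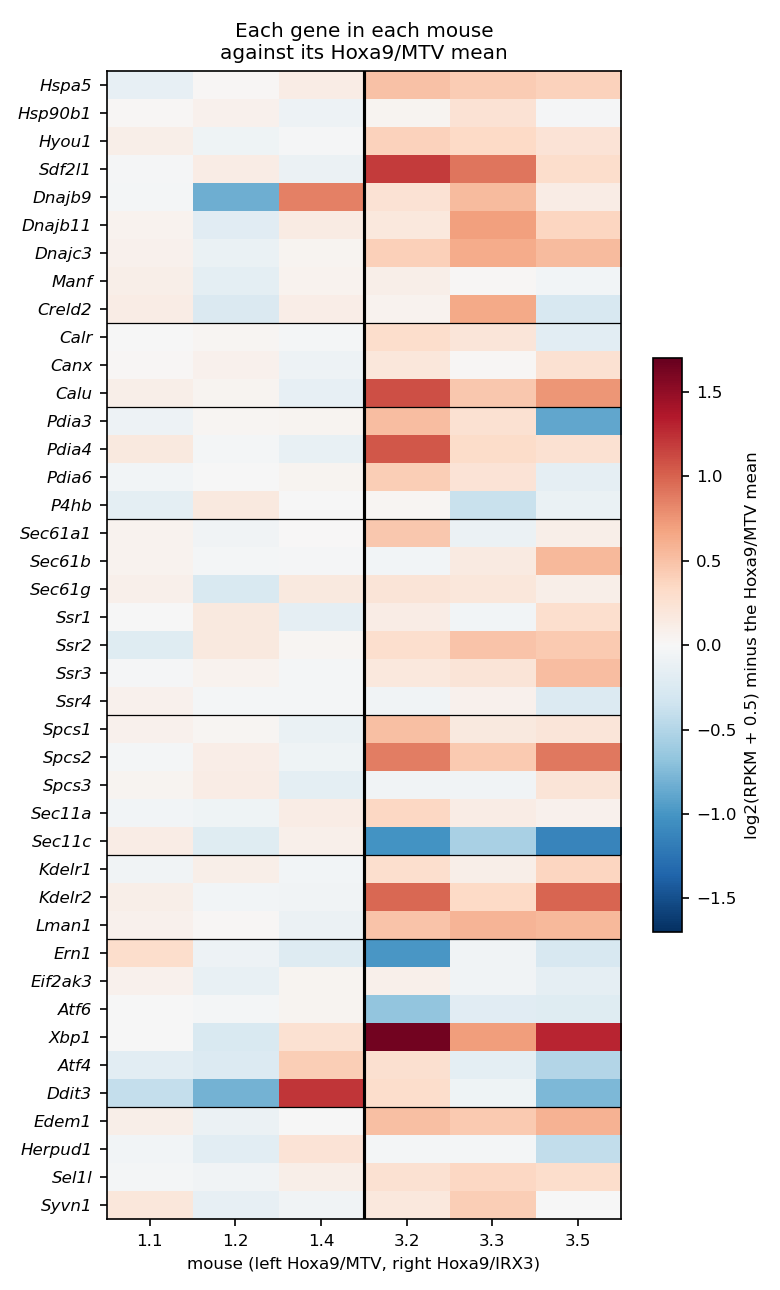
Rows are the 41 tested genes, ordered by role with lines between roles, and columns the 6 mice. Color gives log2(RPKM + 0.5) minus the *Hoxa9*/MTV mean of the gene, red above and blue below. *Xbp1* is red in all of mice 3.2, 3.3 and 3.5, *Sec11c* is blue in all of them, and *Dnajb9* and *Ddit3* vary most among the *Hoxa9*/MTV mice.

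Levels of different genes were compared per kilobase of exon, since the deposited RPKM divide by the whole gene span. The values are approximate because reads of introns may be included and an aligner without splicing can lose reads across short exons. On that scale *P4hb* (cohort means 597 in *Hoxa9*/MTV and 539 in *Hoxa9*/*IRX3*), *Calr* (526 and 572) and *Hspa5* (364 and 493) were the most abundant. The order of these 3 genes differed between mice, so that it is not firm. *Xbp1* had exon-scale means of 114 in *Hoxa9*/MTV and 271 in *Hoxa9*/*IRX3*. It was below *Hspa5* in every mouse, and in mouse 3.2, where *Xbp1* was highest, the 2 genes were at 352 and 513. *Sec61g*, at 1.22 to 2.34 per kilobase of exon, and *Kdelr3*, at 0.16 to 1.66, were the lowest. *Sec61g* was above *Kdelr3* in every mouse.

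All 9 ER chaperones and co-chaperones had a mean difference above 0, from 0.02 to 0.80 with a median of 0.32, 5 of them without overlap, and 0 of 9 passed limma's adjusted threshold (5 had an unadjusted p under 0.05). *Hspa5* encodes BiP, the HSP70 chaperone of the ER that also holds the sensors inactive, and lies at chr2:34771970-34777547. It was at 249.7, 278 and 299.7 RPKM in mice 1.1, 1.2 and 1.4, whereas it was at 389, 372 and 360.1 RPKM in mice 3.2, 3.3 and 3.5. Every *Hoxa9*/*IRX3* mouse exceeded every *Hoxa9*/MTV mouse, with means of 276 ± 25.0 and 374 ± 14.6 (SD, n = 3 each), a difference of 0.44 ± 0.13 and a limma adjusted p of 0.109. *Sdf2l1*, a partner of BiP, was at 61.9, 68.5 and 58.5 RPKM in mice 1.1, 1.2 and 1.4 and reached 144, 118 and 77.1 RPKM in mice 3.2, 3.3 and 3.5. Its difference was 0.80 ± 0.24 (limma adjusted p = 0.112). Mouse 3.5 was the lowest of its cohort, and without it the limma adjusted p was 0.0313. When another mouse was left out, the adjusted p of *Sdf2l1* was up to 0.316.

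*Dnajc3*, which encodes the BiP co-chaperone p58IPK, was at 5.31, 4.59 and 5.17 RPKM in mice 1.1, 1.2 and 1.4, and at 6.80, 8.01 and 7.53 RPKM in mice 3.2, 3.3 and 3.5. The difference was 0.52 ± 0.12 with a limma adjusted p of 0.0637. The gap between the cohorts was wider than the range within either. *Dnajb11*, another co-chaperone of BiP, was at 4.27, 3.52 and 4.56 RPKM in *Hoxa9*/MTV and at 4.72, 6.97 and 5.43 RPKM in *Hoxa9*/*IRX3*, 0.42 ± 0.17 apart (limma adjusted p = 0.202). *Hyou1*, a large HSP70-like nucleotide exchange factor for BiP, was at 22.3, 19.6 and 20.3 RPKM against 27.3, 26.3 and 24.4 RPKM, 0.32 ± 0.13 apart (limma adjusted p = 0.191). For *Dnajb11* the lowest *Hoxa9*/*IRX3* mouse was close to the highest *Hoxa9*/MTV mouse.

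*Hsp90b1* (GRP94, the HSP90 of the ER) was at 43.7, 45.6 and 40.7 RPKM in *Hoxa9*/MTV and at 44.7, 51.5 and 42.9 RPKM in *Hoxa9*/*IRX3*. The cohorts overlapped, with a difference of 0.09 ± 0.14 (limma adjusted p = 0.712). *Dnajb9*, *Manf* and *Creld2*, also chaperones or co-chaperones, overlapped as well, with differences of 0.30 ± 0.41, 0.02 ± 0.12 and 0.14 ± 0.25. *Dnajb9* had the widest spread, from 7.42 to 24.9 RPKM within the *Hoxa9*/MTV cohort. The span of *Manf* contains part of *Rbm15b* on the same strand, at 23.0 RPKM, so that its value is uncertain, and *Hsp90b1* overlaps the noncoding *Gm15344*.

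Among the calcium-binding chaperones, *Calr* and *Canx*, the lectin chaperones of glycoproteins, overlapped between the cohorts and *Calu* did not, and 0 of 3 passed limma's adjusted threshold (1 unadjusted). *Calr* was at 295, 306 and 293 RPKM in *Hoxa9*/MTV and at 366, 342 and 264 RPKM in *Hoxa9*/*IRX3*, where mouse 3.5 was the lowest of all 6. *Canx* was at 29.0, 30.2 and 27.1 RPKM against 33.0, 29.1 and 34.5 RPKM. *Calu*, which encodes the EF-hand protein calumenin, was at 10.2, 9.79 and 8.57 RPKM against 20.9, 13.3 and 16.3 RPKM. The differences of *Calr*, *Canx* and *Calu* were 0.11 ± 0.16, 0.16 ± 0.14 and 0.77 ± 0.19, with limma adjusted p-values of 0.716, 0.509 and 0.0694. Without mouse 3.3, the lowest *Hoxa9*/*IRX3* mouse for *Calu*, its limma adjusted p was 0.0385. When another mouse was left out, the adjusted p of *Calu* was up to 0.242.

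Of the 4 protein disulfide isomerases, which form and reshuffle disulfide bonds, 2 had a mean difference above 0 and 2 below, with 0 past either limma threshold. *Pdia4* was at 12.1, 10.5 and 9.76 RPKM in *Hoxa9*/MTV and at 22.7, 13.5 and 12.98 RPKM in *Hoxa9*/*IRX3*, without overlap, 0.54 ± 0.24 apart (limma adjusted p = 0.220). Mouse 3.2 was far above the other mice of its cohort. *Pdia3*, *Pdia6* and *P4hb* overlapped, with differences of -0.03 ± 0.36, 0.16 ± 0.17 and -0.15 ± 0.17. *Pdia3* was at 5.19 RPKM in mouse 3.5 and at 9.46 to 14.7 RPKM in the other 5 mice, and in the fits without each mouse in turn its lowest limma adjusted p was 0.169.

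The 7 translocon genes, of the SEC61 channel and the TRAP complex beside it, had a median difference of 0.17, with 6 above 0, 2 without overlap and 0 past limma's adjusted threshold (1 unadjusted). *Ssr2*, a TRAP subunit, was at 13.6, 17.8 and 16.2 RPKM in *Hoxa9*/MTV and at 19.4, 22.3 and 21.7 RPKM in *Hoxa9*/*IRX3*, 0.41 ± 0.15 apart (limma adjusted p = 0.164). *Gm10704*, a pseudogene at 117 RPKM, lies within its span on the opposite strand. *Ssr3*, the next subunit, was at 63.9, 67.7 and 63.3 RPKM against 73.6, 75.4 and 93.4 RPKM, 0.30 ± 0.15 apart (limma adjusted p = 0.261). *Ssr1* (0.12 ± 0.16) and *Ssr4* (-0.07 ± 0.13) overlapped, as did the channel subunits *Sec61a1* (0.16 ± 0.17), *Sec61b* (0.22 ± 0.17) and *Sec61g* (0.17 ± 0.15). The mean differences of the TRAP subunits thus had both signs, and that of *Ssr4* changed sign in 3 of the 15 alternatives.

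The signal peptidase complex held the only gene of the 41 that passed limma's adjusted threshold. *Sec11c* fell by 0.90 ± 0.19 on the log2 scale (limma adjusted p = 0.0485). It encodes 1 of the 2 alternative catalytic subunits, and lies at chr18:65800515-65817684. Its level was 8.43, 6.58 and 8.20 RPKM in mice 1.1, 1.2 and 1.4 and 3.55, 5.11 and 3.26 RPKM in mice 3.2, 3.3 and 3.5. All *Hoxa9*/*IRX3* mice were below all *Hoxa9*/MTV mice, and the means were 7.74 ± 1.01 and 3.97 ± 0.99 RPKM (SD, n = 3 each). The call is close to the threshold: it held without mouse 3.3 (adjusted p = 0.0220), was lost without each of the other 5 mice, with adjusted p-values up to 0.185, and held in 6 of 15 alternatives in all. The other catalytic subunit, *Sec11a*, was at 1.14 to 1.38 RPKM in *Hoxa9*/MTV and at 1.31 to 1.71 RPKM in *Hoxa9*/*IRX3*, with overlap and a difference of 0.18 ± 0.12.

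*Spcs2*, an accessory subunit of the same complex, was at 8.12, 9.04 and 7.88 RPKM in *Hoxa9*/MTV and at 15.6, 11.5 and 16.0 RPKM in *Hoxa9*/*IRX3*. No mice overlapped, and the difference was 0.74 ± 0.16 with a limma adjusted p of 0.0548. That p was 0.0242 without mouse 3.3, and up to 0.2065 when another mouse was left out. *Spcs1*, another accessory subunit, was at 7.84, 7.63 and 6.83 RPKM against 10.8, 8.39 and 8.62 RPKM (0.30 ± 0.14, limma adjusted p = 0.261), and *Spcs3* overlapped (0.03 ± 0.16). The subunits of 1 complex thus lay on both sides of 0, with *Sec11c* alone below.

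Of the retrieval and cargo receptors, all 3 tested genes were without overlap above the *Hoxa9*/MTV mice, with a median of 0.53, and 0 passed limma's adjusted threshold (2 unadjusted). *Lman1* (ERGIC-53, the lectin receptor that carries glycoproteins from the ER) was at 6.57, 6.29 and 5.78 RPKM in *Hoxa9*/MTV and at 8.87, 9.49 and 9.29 RPKM in *Hoxa9*/*IRX3*. The difference was 0.53 ± 0.12, the cohorts were tight, and its limma adjusted p of 0.0502 just missed the limit. It was under 0.05 in 7 of 15 alternatives, and in 0 of the 6 fits without 1 mouse. *Kdelr2*, a receptor that returns KDEL-bearing chaperones from the Golgi, was at 5.77, 5.17 and 5.08 RPKM against 11.0, 6.88 and 11.1 RPKM. Mouse 3.3 was again the lowest of its cohort. The difference of *Kdelr2* was 0.77 ± 0.20 with a limma adjusted p of 0.0784. It was 0.0166 without mouse 3.3, and up to 0.2545 when another mouse was left out. *Kdelr1*, the constitutive receptor, was at 7.34, 8.25 and 7.41 RPKM against 9.44, 8.26 and 9.97 RPKM (0.25 ± 0.13, limma adjusted p = 0.282), and the nearest mice of the cohorts were almost level. *Kdelr3* was not tested: it was at 0.207 RPKM at most, from 2, 4 and 3 reads in the *Hoxa9*/MTV mice and 8, 23 and 3 reads in the *Hoxa9*/*IRX3* mice, and it overlaps *Ddx17* on the opposite strand.

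**Figure D3:**
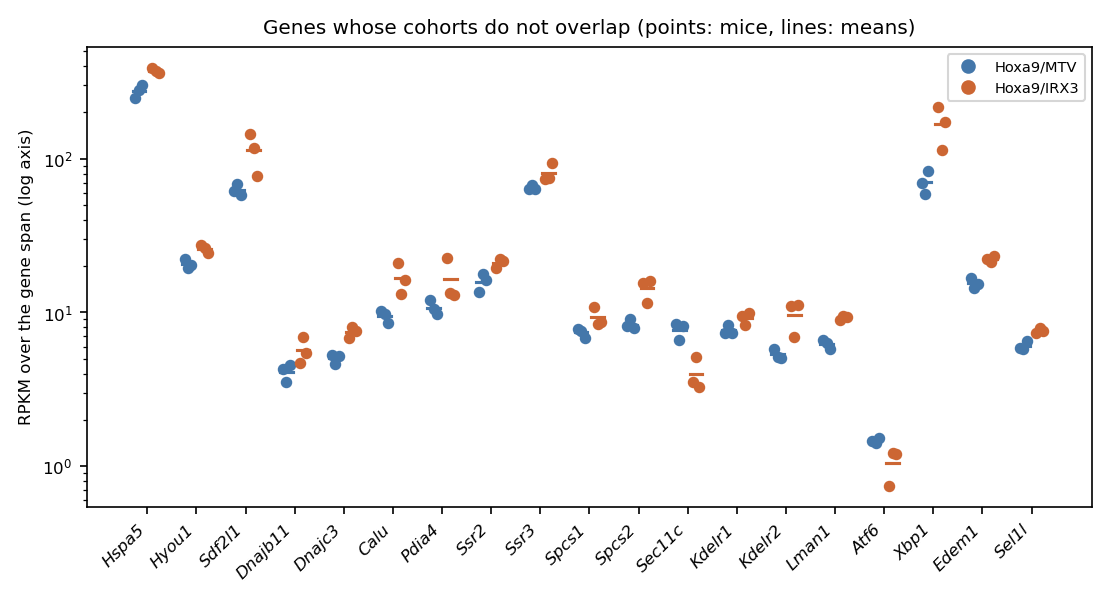
Each point is 1 mouse and each line a cohort mean, in RPKM over the gene span on a log axis, for the 19 genes whose cohorts did not overlap. *Sec11c* and *Atf6* are the 2 with *Hoxa9*/*IRX3* (orange) below *Hoxa9*/MTV (blue), and levels are not comparable between genes.

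Among the sensors and transcription factors, 1 of 6 genes had a mean difference above 0, *Xbp1*, and 5 had one below 0. *Xbp1*, at chr11:5520659-5525893, was at 69.8, 58.5 and 83.5 RPKM in mice 1.1, 1.2 and 1.4 and at 218, 114 and 172 RPKM in mice 3.2, 3.3 and 3.5. The lowest *Hoxa9*/*IRX3* mouse was above the highest *Hoxa9*/MTV mouse, and the means were 70.6 ± 12.5 and 168 ± 52.1 RPKM (SD, n = 3 each), a ratio of 2.38. The difference was 1.21 ± 0.27 with a limma adjusted p of 0.0537. The call turned on the processing, since the adjusted p was under 0.05 in 4 of 15 alternatives, among them the fit without mouse 3.3 (0.0224), and up to 0.192 in the other fits without 1 mouse. *Xbp1* was the only gene of the 41 with a ratio of mean RPKM over 2, the size of change that the study required, and its unadjusted limma p was 0.00317.

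The 3 sensors had mean differences below 0. *Ern1*, which encodes the kinase and nuclease IRE1, was at 3.52, 2.59 and 2.31 RPKM in *Hoxa9*/MTV and at 1.15, 2.63 and 2.204 RPKM in *Hoxa9*/*IRX3*. *Atf6* was at 1.46, 1.43 and 1.53 RPKM against 0.739, 1.23 and 1.20 RPKM. In *Atf6* all *Hoxa9*/*IRX3* mice were below all *Hoxa9*/MTV mice, whereas those of *Ern1* overlapped, and mouse 3.2, the highest for *Xbp1*, was the lowest for both. The differences were -0.44 ± 0.27 for *Ern1* (limma adjusted p = 0.346) and -0.36 ± 0.15 for *Atf6* (limma adjusted p = 0.215). *Eif2ak3*, which encodes PERK, was at 1.09, 0.890 and 1.06 RPKM against 1.10, 0.949 and 0.863 RPKM, with overlap (-0.04 ± 0.12, limma adjusted p = 0.849).

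*Atf4*, translated when PERK or another kinase phosphorylates eIF2alpha, was at 119, 115 and 181 RPKM in *Hoxa9*/MTV and at 163, 121 and 95.5 RPKM in *Hoxa9*/*IRX3*. *Ddit3*, which encodes CHOP, was at 2.24, 1.57 and 7.91 RPKM against 3.95, 2.96 and 1.64 RPKM. Both overlapped, with differences of -0.13 ± 0.27 and -0.18 ± 0.55 (limma adjusted p = 0.790 and 0.866). *Hoxa9*/MTV mouse 1.4 was the highest of all 6 mice for *Atf4*, *Ddit3*, *Dnajb9* and *Herpud1*, and for these genes the spread within that cohort was as wide as the distance between the cohorts or wider. *Ddit3* overlaps *Mars* on the opposite strand, at 3.25 RPKM, and how strand was used in counting is not given in the sources used here.

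**Figure D4:**
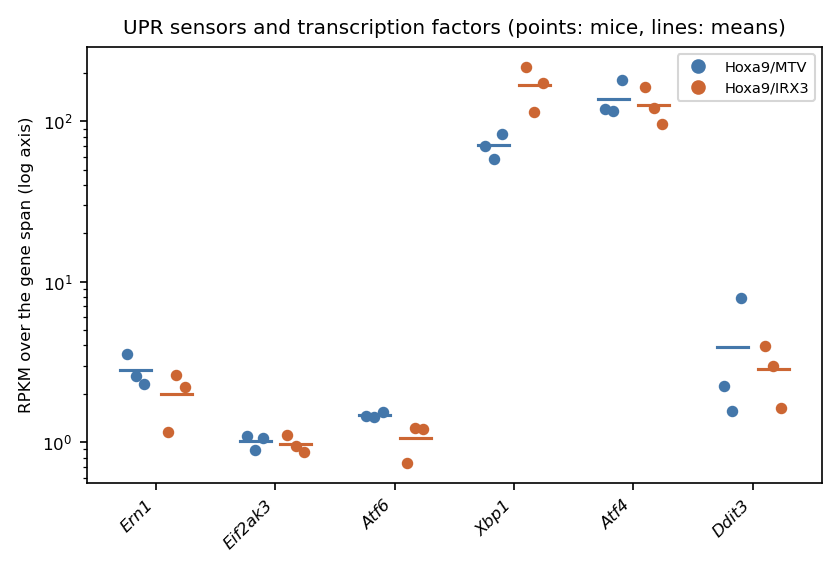
Each point is 1 mouse and each line a cohort mean, in RPKM over the gene span on a log axis, for the 3 sensors and 3 transcription factors of the UPR. The 3 *Hoxa9*/*IRX3* mice (orange) lie above the *Hoxa9*/MTV mice (blue) for *Xbp1* and below them for *Atf6*, and overlap them for the other 4 genes.

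In ER-associated degradation, 2 of 4 genes were without overlap above the *Hoxa9*/MTV mice, and 0 passed limma's adjusted threshold (2 unadjusted). *Edem1*, a mannosidase-like lectin that hands misfolded glycoproteins over for degradation, was at 16.6, 14.4 and 15.3 RPKM in *Hoxa9*/MTV and at 22.2, 21.1 and 23.4 RPKM in *Hoxa9*/*IRX3*. *Sel1l*, the adaptor of the ER ubiquitin ligase, was at 5.88, 5.75 and 6.53 RPKM against 7.32, 7.88 and 7.57 RPKM. The differences were 0.51 ± 0.13 and 0.30 ± 0.11 (limma adjusted p = 0.0701 and 0.169), both larger than the spread within either cohort. *Syvn1*, the ligase that pairs with SEL1L, overlapped (0.19 ± 0.16), as did *Herpud1*, a membrane component of the same complex (-0.16 ± 0.18).

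**Figure D5:**
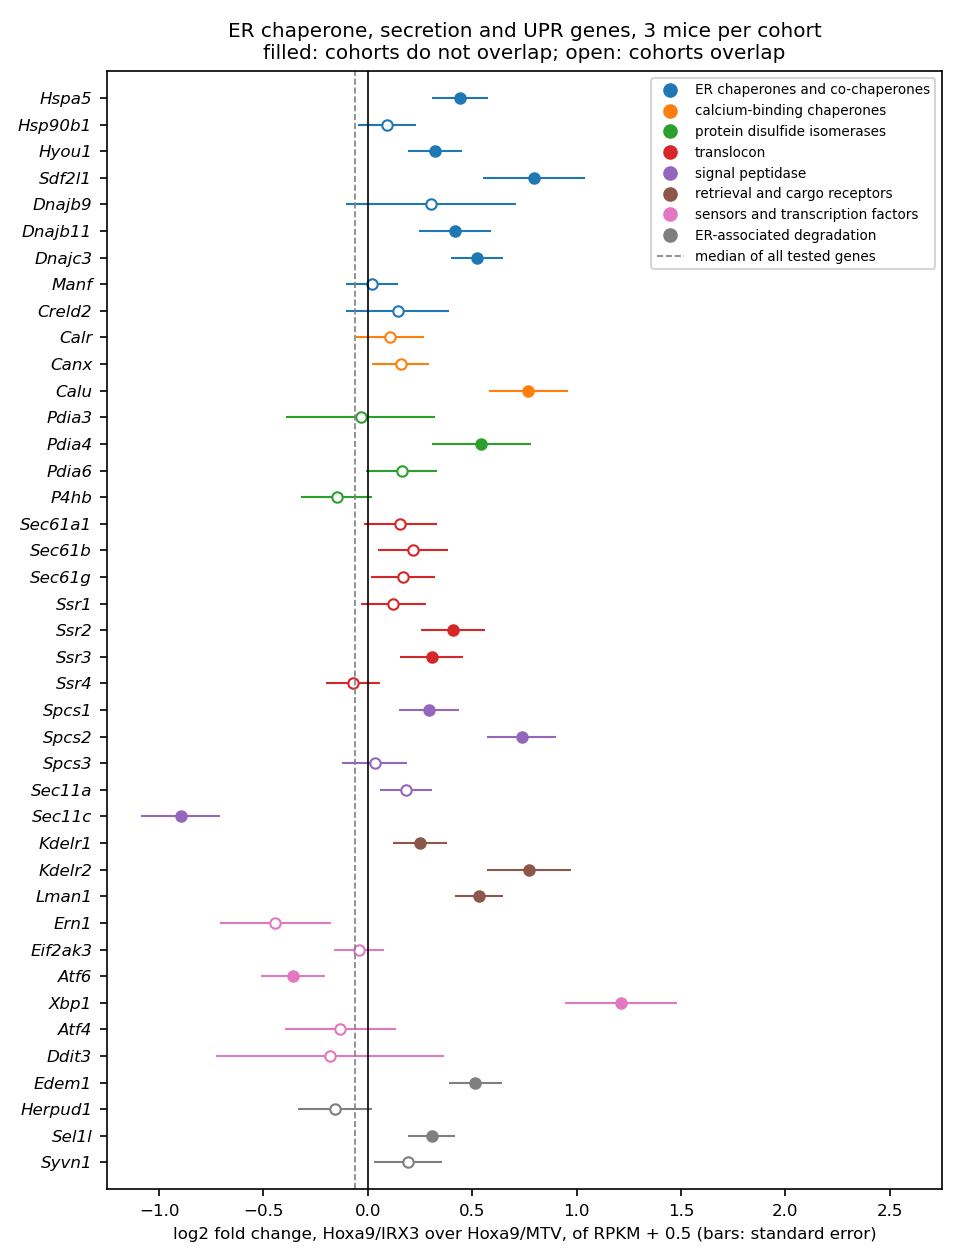
Points are log2 fold changes of *Hoxa9*/*IRX3* over *Hoxa9*/MTV (RPKM + 0.5) of the 41 tested genes, colored by role, with limma's standard error as bars. Filled points are the genes whose cohorts did not overlap, and the dashed line is the median of all tested genes at -0.06. *Xbp1* at 1.21 and *Sec11c* at -0.90 are the ends of the range.

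The promoter elements were set beside these differences as a description. Of the 10 tested genes with either form of the ER stress element, 3 (*Hspa5*, *Dnajc3* and *Dnajb11*) had all *Hoxa9*/*IRX3* mice above, with a median difference of 0.16. Of the 22 tested genes with a promoter and no such element, 10 did, with a median of 0.23. Outside the set, 11 tested genes had either element, of which 1 was above and 3 were below without overlap, with a median of 0.02. Of all 7244 tested genes with a promoter, 882 were above and 1612 below without overlap, with a median of -0.07.

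Other genes of the same pathways, 108 in 9 lists, were examined alongside, of which 101 were tested. By limma's adjusted threshold 3 were higher and 1 was lower, beside 1.84% and 3.52% of all tested genes. 24 lay above and 13 below without overlap (23.8% and 12.9%), where 12.2% and 21.6% of all tested genes did. The median difference of the 101 genes was -0.005. *Fkbp11*, a peptidyl-prolyl isomerase of secretory cells, rose from 0.709, 1.29 and 1.22 RPKM in the *Hoxa9*/MTV mice to 6.78, 8.19 and 5.27 RPKM in *Hoxa9*/*IRX3*, by 2.21 ± 0.21 on the log2 scale (limma adjusted p = 0.00553). *Asns*, the asparagine synthetase induced by ATF4, rose from 0.400, 0.326 and 0.349 RPKM to 2.58, 3.67 and 2.67 RPKM, by 2.00 ± 0.15 (limma adjusted p = 0.00298). Both kept an adjusted p under 0.05 without any single mouse. *Asns* passed the filter of 0.5 RPKM only through the *Hoxa9*/*IRX3* mice. So did *Nupr1* of the integrated stress response and *Sec24d* of the COPII coat. All of these are among the 24 that lay above, which such genes could enter only as higher. *Ostc*, a subunit of the oligosaccharyltransferase, rose from 4.98, 5.30 and 4.78 RPKM to 8.003, 7.73 and 9.40 RPKM (0.68 ± 0.13, limma adjusted p = 0.0345). *Dnajc10*, a reductase that helps degradation, was at 13.4, 10.3 and 13.9 RPKM against 3.39, 5.16 and 5.36 RPKM, and it fell by 1.35 ± 0.21 (limma adjusted p = 0.0214). *Ostc* and *Dnajc10* each lost the call without mouse 1.1, 1.2 or 1.4, with limma adjusted p-values up to 0.153 and 0.104, and kept it without each *Hoxa9*/*IRX3* mouse. The number of these genes called lower was 0 without mouse 1.1, 1.2 or 1.4 and 3 without mouse 3.3.

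Medians by list are given with the numbers of genes above and below without overlap. Over all tested genes these shares were 12.2% and 21.6%. The median was 0.28 for 11 tested oligosaccharyltransferase genes (5 and 2, with 1 called higher). It was -0.005 for 11 genes of signal recognition and translocation (0 and 1, with 0 called). It was -0.03 for 13 genes of oxidative folding and foldases (2 and 4, *Fkbp11* called higher and *Dnajc10* lower). It was -0.02 for 4 genes of glycan trimming (1 and 0) and -0.02 for 16 further degradation genes (3 and 3). For 12 COPII coat genes it was 0.10 (4 and 1), and for 13 p24 and other cargo receptors 0.05 (2 and 0). For 10 further UPR regulators it was -0.08 (4 and 2). The 11 genes of the integrated stress response had a median of 0.23 (3 and 0, *Asns* called higher) and ran from -1.82 to 2.00. At an unadjusted limma p under 0.05, 2 of these 11 were higher and 2 lower. In the lists for which no call is given, no gene passed limma's adjusted threshold. Of 12 chaperones of the cytosol and mitochondria, 1 was called, with a list median of -0.15. It was *Hsph1*, an HSP110 nucleotide exchange factor, at 1.18, 0.747 and 1.18 RPKM against 3.13, 3.58 and 2.68 RPKM (1.25 ± 0.17, limma adjusted p = 0.0140), and the call was lost without mouse 1.1, 1.2 or 1.4, with limma adjusted p-values up to 0.0667.

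The cells were checked against markers of the sort and of other cells. *Kit* was at 1.63 to 3.12 RPKM with overlap, and *Ly6c2*, which encodes a Gr1 antigen, was at 413 to 844 RPKM. *Ly6g*, the other Gr1 antigen, was at 0.0532 to 0.145 RPKM in the *Hoxa9*/MTV mice and rose to 0.682 to 1.42 RPKM in *Hoxa9*/*IRX3* (limma adjusted p = 0.0205, lost without any 1 *Hoxa9*/MTV mouse, up to 0.102). It passed the filter of 0.5 RPKM only through the *Hoxa9*/*IRX3* mice. The summed RPKM of the 7 markers of sorted myeloid cells was 429 to 493 in *Hoxa9*/MTV and 435 to 862 in *Hoxa9*/*IRX3*. The 4 primary granule genes *Mpo*, *Elane*, *Prtn3* and *Ctsg*, which encode secreted cargo, were all without overlap above the *Hoxa9*/MTV mice. Their summed RPKM was 1610 to 2390 in *Hoxa9*/MTV and 4160 to 5720 in *Hoxa9*/*IRX3*, and *Elane* was called higher (1.91 ± 0.26, limma adjusted p = 0.0144, and up to 0.0745 without mouse 1.1 or 1.4). *Mpo*, *Prtn3* and *Ctsg* did not pass (limma adjusted p = 0.115, 0.123 and 0.0741), and *Ly6c2* overlapped between the cohorts. The part of these granule and Gr1 genes in the result was not tested.

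The 12 plasma cell and B cell markers had a summed RPKM of 8.02 to 11.4 in *Hoxa9*/MTV and 0.38 to 2.33 in *Hoxa9*/*IRX3*, with *Pax5* and *Ms4a1* at 0 in all 6 mice. Only 2 of the 12, *Mzb1* and *Cd79b*, passed the filter, and both lay lower without overlap. *Cd79b* was called lower (limma adjusted p = 0.0384), a call kept only without mouse 3.5 when 1 mouse was left out (up to 0.154). The 6 late neutrophil genes summed to 1050 to 1630 RPKM in *Hoxa9*/MTV and 688 to 1710 RPKM in *Hoxa9*/*IRX3*, with 0 called. The 6 monocyte and macrophage genes summed to 32.3 to 49.9 and 12.6 to 57.8 RPKM, and *Ccr2* fell (-2.07 ± 0.23, limma adjusted p = 0.00843, and up to 0.0528 without mouse 1.1 or 1.4). The 4 mast cell and basophil genes summed to 9.9 to 14.2 and 3.22 to 6.69 RPKM, with *Fcer1a* at 0 and *Cpa3* called lower (limma adjusted p = 0.0432), a call kept only without mouse 1.2 when 1 mouse was left out (up to 0.158). The part of these markers in the result was not tested. Markers of stroma and endothelium summed to 0.438 RPKM at most, with *Col3a1*, *Dcn* and *Lum* at 0 in all mice. In the T and NK cell list, *Cd3e*, *Cd3g* and *Cd8a* were at 0.0197 RPKM or lower, and *Nkg7* was at 14.9 to 482 RPKM with overlap.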

How the data were processed

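RNA of sorted KIT+Gr1+ leukemia cells from 6 mice was analyzed, 3 per cohort and 1 library per mouse, with the cohort taken from the sample labels. The authors made strand-specific polyA libraries, sequenced paired ends of 75 bases, and aligned them to GRCm38 with Bowtie2 2.2.1. SAMtools 0.1.19 served to drop unaligned reads, non-primary alignments and those of a Phred quality under 20. Reads were assigned to Ensembl v76 genes through Annmap in R, and RPKM of every gene and mouse were deposited in a single table, all of whose value columns were used. RPKM are not counts. Steps between low values give 7979246 to 9803621 reads per library, and reads so computed were whole within 0.01 of a read in all mice for 65% of tested genes.

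Positions, gene types and exon lengths came from GENCODE M21 (GRCm38), which held 40254 of the 41128 genes. Protein-coding genes over 0.5 RPKM in at least 1 mouse were fitted (9522 genes) in R 4.3.3 by limma 3.58.1 (lmFit, then eBayes with trend) on the log2(RPKM + 0.5) scale with Benjamini-Hochberg adjustment, and called at an adjusted p under 0.05. The script was tested on simulated data. The members, lists and tests were chosen with earlier results of these data known. Values in every mouse are given for genes that passed the threshold or whose cohorts did not overlap, for the sensors and transcription factors, and for *Hspa5*, *Hsp90b1*, *Calr* and *Canx*. Of the other pathway lists, genes that passed were named. The marker genes named were chosen after their values were seen. Alternatives were a pseudocount of 0.1 or 1, no filter, a mean of at least 1 RPKM, no variance trend, scaling by median-of-ratios, quantile normalization, limma voom on the recovered reads, and each mouse left out in turn. All gene types, and the order of the cohorts under other scalings and without each mouse, were added after seeing the data. Other steps used Python 3.11.15, pandas 2.3.3, numpy 2.4.6 and, for figures, matplotlib 3.10.9. One of the marker lists is not reported here.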

Additional observations from a re-analysis of the deposited data

How the results depend on the processing

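The median difference of the 41 genes was 0.184 and ran from 0.155 to 0.272 over the 15 alternatives, and from 0.161 to 0.247 without each mouse in turn. The number of genes called higher was 0 and became 1 with a pseudocount of 1 (*Lman1*), 2 with no filter (*Edem1* and *Lman1*), 1 with a mean of at least 1 RPKM (*Lman1*), 3 with median-of-ratios scaling (*Xbp1*, *Dnajc3* and *Lman1*), 5 with quantile normalization (those 3 with *Edem1* and *Spcs2*), 1 with no variance trend (*Lman1*) and 3 with limma voom on the recovered reads (*Xbp1*, *Spcs2* and *Lman1*), which called 180 genes higher and 293 lower over all tested genes. It ran from 0 to 4 without each mouse, with 4 without mouse 3.3 (*Xbp1*, *Calu*, *Spcs2* and *Kdelr2*) and 1 without mouse 3.5 (*Sdf2l1*). The number called lower was 1 (*Sec11c*) and became 0 with a pseudocount of 0.1, with no filter, with quantile normalization and with all gene types, and it ran from 0 to 1 without each mouse. Cohorts lay above without overlap in 17 genes and below in 2. Without each mouse in turn the counts were 18 to 22 and 2 to 4. Leaving out a mouse cannot lower these counts, so these ranges do not test them. Of the other pathway genes, 2 to 4 were called higher and 0 to 3 lower without each mouse. The causes were not tested, except that fits without 1 mouse have fewer samples. Of 613 values of single genes under the alternatives, 583 stayed on their side of the threshold, 21 passed it and 9 no longer did, and 0 reversed a call. The sign of the difference turned in at least 1 alternative for 9 uncalled genes (*Dnajb9*, *Manf*, *Creld2*, *Pdia3*, *Ssr4*, *Spcs3*, *Eif2ak3*, *Atf4* and *Ddit3*). No paired analysis was possible because the mouse numbers do not recur between the cohorts. *Kdelr3* and *Sec61g* rest on few reads, and the cause of this was not tested.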
